A study of Mus musculus with 12 samples.

Results

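Collagen chain genes were taken as the probe sets that carried a single gene symbol of the form Col1a1 or Col15a1, and the brightest was kept of those that shared a symbol. This gave 42 genes of the 18820 measured, of which 11 encode fibrillar chains, 6 encode the type IV chains of basement membranes and 25 encode other collagens. Another 3 collagen genes were not analysed here: the probe sets of Col7a1 and Col9a3 carried a second symbol, and Col21a1 was not found among the annotated probe sets. The samples were hind limb skeletal muscle and heart of C57BL/6 mice 11 days old, either Tk2-/- or Tk2+/+. Tk2 encodes thymidine kinase 2, the mitochondrial enzyme that phosphorylates thymidine for the synthesis of mitochondrial DNA, and the Tk2-/- mice lacked it on both alleles. There were 12 Affymetrix Mouse Gene ST arrays, 3 for Tk2-/- muscle, 3 for Tk2+/+ muscle, 3 for Tk2-/- heart and 3 for Tk2+/+ heart, and the mice within a group were different animals. The methods name 3 mice of each genotype for both tissues, so muscle and heart were read as coming from the same animals, but the labels do not tie a muscle array to a heart array. Litter mates of both genotypes came from matings of heterozygous mice, and no other allele or treatment was named for any group.

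Collagens are the main proteins of the extracellular matrix, and each molecule is made of chains wound around each other in a long helix. Fibrillar collagens (types I, II, III, V, XI, XXIV and XXVII) assemble into the fibrils that give connective tissue its tensile strength, and in muscle types I, III and V build the sheaths between fibres and bundles. Type IV chains form the network of the basement membrane, the thin sheet around each muscle fibre and capillary. Type VI collagen forms beaded filaments next to that sheet, types XII and XIV bind the surface of fibrils, and types XV and XVIII lie at the outer face of basement membranes. Types II, IX, X and XI are known best from cartilage.

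The value of each probe set is a linear intensity, called signal here, and comparisons were made with limma on log2(signal + 16) over all genes, with p-values adjusted over all of them and a threshold of 0.05. Differences are therefore on the log2(signal + 16) scale, which understates the change of dim genes. Of the 42 collagen genes, 31 had a mean signal of at least 32 over the 12 arrays. Probe sets differ in their response, so levels were compared between groups and never between genes. Mean signal over all probe sets was 146.7 to 168.4 on the Tk2-/- heart arrays, against 227.4 to 242.6 on the Tk2+/+ heart arrays, and 224.9 to 245.9 on the Tk2-/- muscle arrays, against 201.8 to 252.4 on the Tk2+/+ muscle arrays. The median difference of all genes was -0.28 in heart and -0.02 in muscle (-0.58 in heart for genes of mean signal at least 32), and values after quantile normalization within each tissue, which brings the arrays of a tissue to 1 distribution, are given beside the heart differences of collagen genes. The Tk2 probe set itself read 64.7, 44.1 and 48.7 in Tk2-/- muscle, against 62.9, 68.5 and 63.1 in Tk2+/+ muscle (limma, adjusted p = 0.208), and 30.1, 46.2 and 31.7 in Tk2-/- heart, against 70.2, 73.6 and 81.8 in Tk2+/+ heart (limma, adjusted p = 7.62e-05). The sources used here do not say whether it lies in the deleted part of the gene, so it is no check of the labels. Markers of skeletal muscle fibres were higher in Tk2+/+ muscle than in Tk2+/+ heart in 10 of 10 genes, and cardiomyocyte markers were lower there in 8 of 9.

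In skeletal muscle, collagen genes moved in 1 direction only: 0 rose, 17 fell and 25 did not pass the threshold of limma in Tk2-/- muscle against Tk2+/+ muscle. The count that rose was also 0 at an unadjusted p under 0.05 and by the alternative test that the study's methods name. The 17 were 40.5% of the collagen genes, while 10.9% of all genes fell and 11.6% rose. After quantile normalization 18 fell and 0 rose, where 14.8% of all genes fell and 13.8% rose. Among genes of mean signal at least 32, the shares were 54.8% of 31 collagen genes and 15.5% of all such genes. The 17 were 6 fibrillar chains (Col1a1, Col1a2, Col3a1, Col5a1, Col5a2 and Col5a3), the type IV chains Col4a1 and Col4a2, the type VI chains Col6a1, Col6a2, Col6a3 and Col6a6, and Col8a1, Col14a1, Col15a1, Col18a1 and Col26a1. In 19 genes the Tk2-/- muscle arrays all lay below the Tk2+/+ muscle arrays, and in 0 genes all above, where the shares of all genes were 18.8% below and 16.9% above. In whole tissue, fewer cells that make collagen and less collagen RNA per cell cannot be told apart.

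In heart, the same 17 genes fell with 5 more (Col4a4, Col4a5, Col12a1, Col16a1 and Col20a1), 1 rose (Col23a1) and 19 did not pass. These 22 were 52.4% of the collagen genes, but 49% of all genes fell in Tk2-/- heart on the deposited values and 1.99% rose, so the count by itself was near the background. After quantile normalization within tissue 17 collagen genes fell (40.5%) and 4 rose, where 17.9% of all genes fell and 13.9% rose. Among genes of mean signal at least 32, the shares that fell on the deposited values were 67.7% of the collagen genes and 74.6% of all, and after quantile normalization 54.8% of the collagen genes and 25.6% of all. Other scalings split the calls differently, with 20 higher and 16 lower after median centring, where 43% of all genes were higher and 23.4% lower, and 21 higher and 16 lower after upper-quartile scaling, where 36% were higher and 14.6% lower. On the deposited values and under all 4 scalings, 16 genes were lower in muscle and 16 in heart, and 15 of these were lower in both tissues. The share of all genes that were lower under every one of these settings was not counted. It cannot exceed the smallest share under a single setting, which was 9.46% in muscle and 14.6% in heart. In 24 genes the Tk2-/- heart arrays all lay below the Tk2+/+ heart arrays, and in 0 all above, where the shares of all genes were 53.3% and 3.16%.

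**Figure D1:**
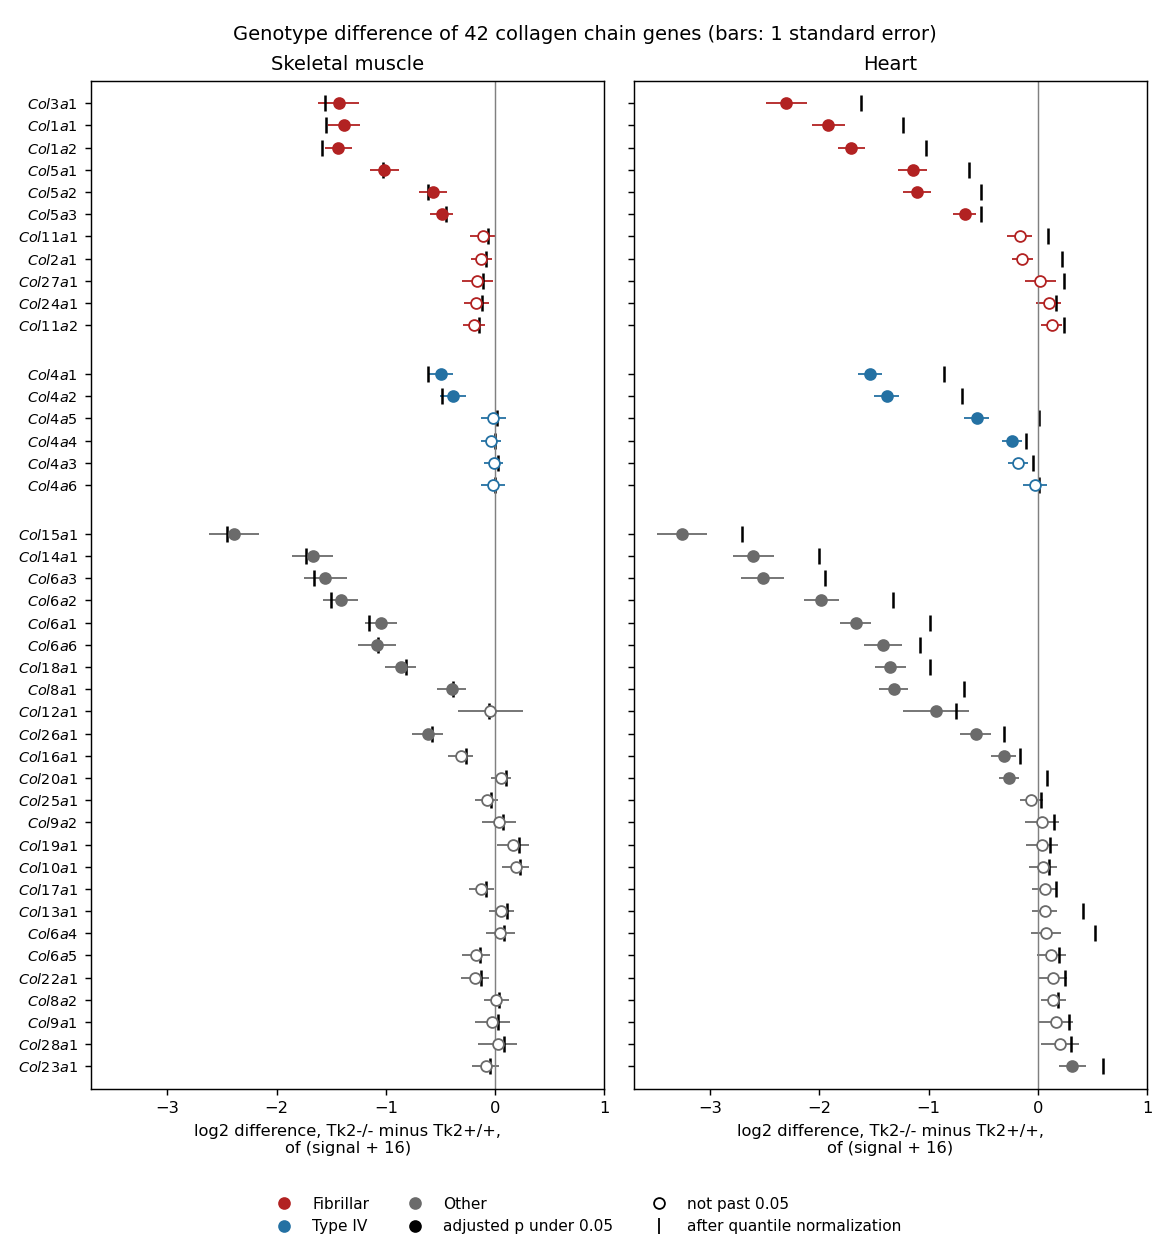
Log2 difference of (signal + 16) between Tk2-/- and Tk2+/+ for each of the 42 collagen genes in skeletal muscle (left) and heart (right), in the order fibrillar, type IV and other, with bars of 1 standard error. Filled circles passed an adjusted p of 0.05 in limma, open circles did not, and vertical ticks give the value after quantile normalization within tissue, which in heart lies to the right of the circle for most genes. Col15a1 lies farthest to the left in both tissues, at -2.39 in muscle and -3.26 in heart.

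Among fibrillar genes, the largest falls were in the chains of type I and type III collagen. Col1a1, which encodes the alpha 1 chain of type I collagen, read 1422, 1245 and 1126 in Tk2-/- muscle, against 3441, 3414 and 3076 in Tk2+/+ muscle. Col1a2, its partner chain, read 1329, 1197 and 997 in Tk2-/- muscle, against 3233, 3327 and 2983 in Tk2+/+ muscle. For both genes the lowest Tk2+/+ muscle array was more than 2 times as bright as the highest Tk2-/- muscle array. The differences were -1.38 ± 0.15 for Col1a1 and -1.43 ± 0.12 for Col1a2 (standard error, n = 3 arrays a group; limma, adjusted p = 1.17e-05 and 1.63e-06), which is 2.61-fold and 2.70-fold lower. In heart, Col1a1 read 287, 305 and 224 in Tk2-/- mice, against 1215, 831 and 1192 in Tk2+/+ mice, and Col1a2 read 354, 367 and 308, against 1245, 992 and 1248. Neither gene had any overlap between genotypes there, and the differences of -1.92 and -1.71 were -1.24 and -1.02 after quantile normalization (limma, adjusted p = 2.99e-05 and 2.23e-05).

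Col3a1 encodes the chain of type III collagen, which forms thin fibrils together with type I. It read 866, 693 and 666 in Tk2-/- muscle, against 2458, 1924 and 1727 in Tk2+/+ muscle, a difference of -1.43 ± 0.19 (standard error, n = 3; limma, adjusted p = 6.44e-05). In heart it read 208, 263 and 146 in Tk2-/- mice, against 1188, 858 and 1134 in Tk2+/+ mice, a difference of -2.30 on the deposited values and -1.62 after quantile normalization (limma, adjusted p = 3.04e-05). The lowest Tk2+/+ heart array was thus more than 3 times as bright as the highest Tk2-/- heart array. This was the largest fall of a fibrillar gene in heart under either set of values.

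Type V chains, which sit inside type I fibrils and limit their width, fell in both tissues, and less than those of types I and III. Col5a1 read 145, 112 and 102 in Tk2-/- muscle, against 283, 255 and 230.5 in Tk2+/+ muscle, and 54.3, 72.4 and 48.8 in Tk2-/- heart, against 149, 152 and 141 in Tk2+/+ heart. Col5a2 read 221, 175 and 180.1 in Tk2-/- muscle, against 332, 282 and 265 in Tk2+/+ muscle, and 77.0, 79.3 and 69.6 in Tk2-/- heart, against 203, 147 and 195 in Tk2+/+ heart. The arrays of the genotypes overlapped in neither gene and neither tissue. Differences in muscle were -1.01 for Col5a1, -0.57 for Col5a2 and -0.49 for Col5a3 (limma, adjusted p = 6.57e-05, 0.00464 and 0.00301). In heart they were -1.15, -1.10 and -0.67, and after quantile normalization -0.63, -0.52 and -0.52 (limma, adjusted p = 0.00115, 0.00243 and 0.000263). A second, dimmer probe set of Col5a1, with a mean signal of 41.2, differed by -0.28 in muscle and -0.19 in heart, so the size of the Col5a1 change rests on the probe set read.

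The remaining 5 fibrillar genes passed the threshold in neither tissue on the deposited values. Col2a1, the chain of the main cartilage collagen, read 91.8, 77.0 and 84.6 in Tk2-/- muscle, against 85.9, 99.3 and 95.3 in Tk2+/+ muscle, and 48.3, 43.7 and 46.5 in Tk2-/- heart, against 50.3, 58.6 and 49.4 in Tk2+/+ heart. Col11a1, a partner of type II collagen in cartilage fibrils, read 61.4 to 78.5 in Tk2-/- muscle, against 64.7 to 90.7 in Tk2+/+ muscle, and 30.6 to 36.4 in Tk2-/- heart, against 35.5 to 42.7 in Tk2+/+ heart. The muscle arrays of the genotypes overlapped in both genes, and the heart arrays in Col11a1 but not in Col2a1. In heart the Col2a1 and Col11a1 differences of -0.14 and -0.17 turned to 0.22 and 0.089 after quantile normalization, neither past the threshold, and to 0.30 and 0.28 after median centring, where both passed. Col11a2, Col24a1 and Col27a1, with mean signals of 29.9, 27.2 and 45.3, differed by -0.19, -0.17 and -0.16 in muscle and by 0.13, 0.098 and 0.022 in heart, and of these the muscle arrays of Col11a2 alone did not overlap. Over all 11 fibrillar genes the median difference was -0.49 in muscle and -0.67 in heart (-0.52 after quantile normalization), where the medians of all genes were -0.02 and -0.28 (0.0023 after quantile normalization). For all genes of mean signal at least 32, as most fibrillar genes were, the heart median was -0.58, near that of the fibrillar genes. After quantile normalization it was -0.036.

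**Figure D2:**
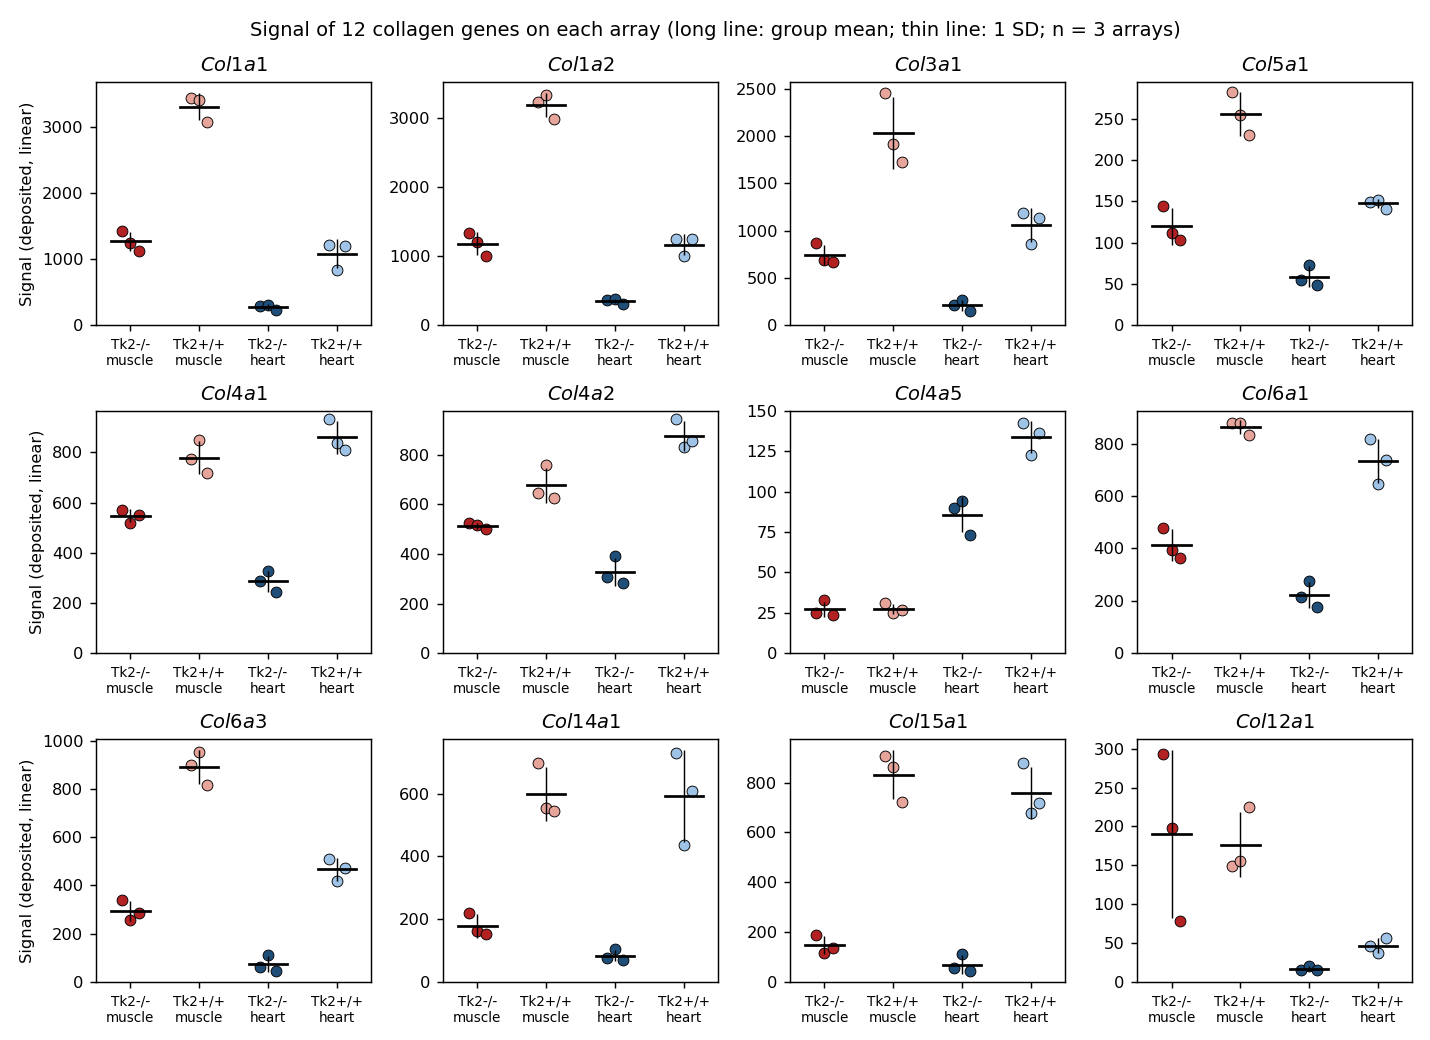
Signal of 12 collagen genes on each of the 12 arrays (vertical axis, linear, from 0), with Tk2-/- left of Tk2+/+ in each tissue, a long line at the mean of each group and a thin line of 1 SD (n = 3). In Col1a1, Col3a1, Col6a3, Col14a1 and Col15a1 the Tk2-/- points lie below the Tk2+/+ points in both tissues, while the Col12a1 points of Tk2-/- muscle spread across those of Tk2+/+ muscle.

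The type IV genes split by chain. Col4a1 and Col4a2, whose chains form the network found in nearly every basement membrane, fell in both tissues. Col4a1 read 572, 521 and 549.8 in Tk2-/- muscle, against 773, 847 and 717 in Tk2+/+ muscle, and 287, 329 and 246 in Tk2-/- heart, against 931, 838 and 809 in Tk2+/+ heart. Col4a2 read 524, 516 and 499.7 in Tk2-/- muscle, against 647, 758 and 626 in Tk2+/+ muscle, and 308, 392 and 284 in Tk2-/- heart, against 944, 831 and 855 in Tk2+/+ heart. No Tk2-/- array of either gene reached the lowest Tk2+/+ array of its tissue. The differences in muscle were -0.49 and -0.39 (limma, adjusted p = 0.00471 and 0.028), and that of Col4a2 was the smallest of the 17 genes that fell there. The Col4a2 call in muscle was lost without any 1 of the 3 Tk2-/- muscle arrays or of Tk2+/+ muscle arrays 1 and 2, with an adjusted p of 0.051 to 0.11, and it held under all 4 scalings. In heart the differences were -1.54 and -1.39, and -0.86 and -0.70 after quantile normalization (limma, adjusted p = 1.76e-05 and 3.8e-05).

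Chains Col4a3 to Col4a6 belong to type IV networks that are restricted to certain tissues, of which the kidney filter is the best known. Col4a5 was the member with the strongest preference for heart: it read 90.0, 94.3 and 73.3 in Tk2-/- heart, against 143, 123 and 136 in Tk2+/+ heart, and 25.0, 32.7 and 23.9 in Tk2-/- muscle, against 31.0, 25.0 and 26.9 in Tk2+/+ muscle. The heart arrays of the genotypes did not overlap on the deposited values, but the difference of -0.56 (limma, adjusted p = 0.000557) turned to 0.013 after quantile normalization (limma, adjusted p = 0.932), so the direction depended on the scaling. Col4a4, with 20.8 to 21.1 in Tk2-/- heart, against 24.5 to 32 in Tk2+/+ heart, passed on the deposited values and under none of the 4 scalings (-0.24; -0.11 after quantile normalization) and turned to 0.20 after median centring, short of the threshold. Col4a3 and Col4a6 passed in neither tissue, with differences between -0.18 and -0.014.

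Type VI collagen, whose filaments link the basement membrane of muscle fibres to the surrounding matrix and whose chains are mutated in human congenital muscular dystrophies, fell in 4 of its 6 genes in both tissues. Col6a1 read 479.6, 394 and 364 in Tk2-/- muscle, against 877, 878 and 832 in Tk2+/+ muscle. Col6a2 read 337, 257 and 245 in Tk2-/- muscle, against 817, 813 and 674 in Tk2+/+ muscle. Col6a3 read 339, 255 and 287 in Tk2-/- muscle, against 900.3, 956 and 817 in Tk2+/+ muscle. Each of the 3 chains of the common type VI molecule was thus lower on every Tk2-/- muscle array than on any Tk2+/+ muscle array, with differences of -1.04, -1.41 and -1.56 (limma, adjusted p = 9.04e-05, 1.85e-05 and 4.56e-05). In heart, Col6a3 read 63.1, 109 and 43.8 in Tk2-/- mice, against 511, 418 and 473 in Tk2+/+ mice, and Col6a1 and Col6a2 read 177 to 275 and 112 to 191 in Tk2-/- mice, against 646 to 817 and 575 to 694 in Tk2+/+ mice. None of the 3 overlapped between genotypes in heart, and their differences were -1.67, -1.98 and -2.52, or -0.99, -1.32 and -1.95 after quantile normalization (limma, adjusted p = 6.61e-05, 1.76e-05 and 1.95e-05).

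The genes of the additional type VI chains differed from each other. Col6a6, which encodes a chain that can take the place of the alpha 3 chain, read 89.0, 66.2 and 62.9 in Tk2-/- muscle, against 232, 164 and 129 in Tk2+/+ muscle, and 30.4, 31.0 and 22.3 in Tk2-/- heart, against 122, 93.1 and 89.4 in Tk2+/+ heart. The arrays did not overlap, and the differences were -1.08 in muscle and -1.42 in heart (-1.08 after quantile normalization). A second probe set of Col6a6 gave -1.05 in muscle and -1.26 in heart. Col6a4 read 109.5, 105 and 94.1 in Tk2-/- muscle, against 105, 104 and 87.5 in Tk2+/+ muscle, with overlapping arrays, and did not pass there (limma, adjusted p = 0.871). In heart it read 70.8, 69.8 and 58.6 in Tk2-/- mice, against 64.2, 78.7 and 46.9 in Tk2+/+ mice, again with overlap, and its difference of 0.073 became 0.52 after quantile normalization (limma, adjusted p = 0.00174). Col6a5, with a mean signal of 23.8, passed in neither tissue. Col6a6, Col6a5 and Col6a4 are neighbours on chromosome 9 in the RefSeq genes of assembly GRCm38.p6.

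Col15a1 had the largest difference of all 42 genes in both tissues. Its chain, a member of the multiplexin family with Col18a1, bridges basement membranes and the fibrils next to them in muscle and around capillaries. It read 189, 116 and 136 in Tk2-/- muscle, against 908, 864 and 720.0 in Tk2+/+ muscle. It read 55.9, 110.1 and 41.3 in Tk2-/- heart, against 878, 678 and 718 in Tk2+/+ heart. In each tissue the lowest Tk2+/+ array was more than 3 times as bright as the highest Tk2-/- array. The differences were -2.39 ± 0.23 in muscle and -3.26 ± 0.23 in heart (standard error, n = 3; limma, adjusted p = 3.96e-06 and 2.68e-07), which is 5.25-fold and 9.57-fold lower, and -2.71 in heart after quantile normalization (limma, adjusted p = 8.45e-06). Col18a1, whose C-terminal fragment is endostatin, read 50.8, 44.1 and 44.1 in Tk2-/- muscle, against 105, 101 and 86.6 in Tk2+/+ muscle, and 31.3, 36.4 and 24.6 in Tk2-/- heart, against 102, 80.2 and 131 in Tk2+/+ heart. It too had no overlap, with differences of -0.86 in muscle and -1.35 in heart (-0.98 after quantile normalization; limma, adjusted p = 8.84e-05).

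The fibril-associated collagens of types XII and XIV did not move alike. Col14a1 read 220.4, 162 and 151 in Tk2-/- muscle, against 697, 554 and 544 in Tk2+/+ muscle, and 77.2, 104 and 68.3 in Tk2-/- heart, against 729.8, 437 and 609 in Tk2+/+ heart. It was lower on every Tk2-/- array than on any Tk2+/+ array of its tissue, with differences of -1.67 in muscle and -2.60 in heart (-2.00 after quantile normalization; limma, adjusted p = 1.47e-05, 2.79e-07 and 8.63e-06). Col12a1 read 294, 198 and 78.2 in Tk2-/- muscle, against 149, 156 and 225 in Tk2+/+ muscle, and the Tk2-/- arrays held both the highest and the lowest value. Its difference of -0.043 in muscle (limma, adjusted p = 0.952) moved to -0.42 without Tk2-/- muscle array 1 and to 0.44 without Tk2-/- muscle array 3. On the same 3 Tk2-/- muscle arrays fibromodulin (Fmod), a fibril-binding proteoglycan of tendon, read 1014, 391 and 369.9. In Tk2+/+ muscle Fmod spread as well, with 222, 624 and 749, and did not pass (limma, adjusted p = 0.859). The tendon marker Thbs4 read 769, 389.9 and 499 in Tk2-/- muscle, with array 3 above array 2, unlike Col12a1. Fmod and Thbs4 were picked after their values were seen. Over 4 tendon markers, of which 2 fell in muscle, the summed signal was 497 to 979 in Tk2-/- muscle, against 717 to 901 in Tk2+/+ muscle, with none at 0. The part of tendon or fascia in the Col12a1 values was not tested. In heart, Col12a1 read 14.9, 20.2 and 14.7 in Tk2-/- mice, against 46.6, 37.1 and 55.9 in Tk2+/+ mice, a difference of -0.93 that passed on the deposited values (limma, adjusted p = 0.0155), but not after quantile normalization (-0.75; limma, adjusted p = 0.0847) or without Tk2+/+ heart array 3 (-0.83; limma, adjusted p = 0.0604).

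Among the other collagens, Col8a1, a network-forming chain of vessel walls and heart valves, fell in heart with 111, 129.5 and 96.4 in Tk2-/- mice, against 305, 283 and 321 in Tk2+/+ mice (-1.32, and -0.68 after quantile normalization; limma, adjusted p = 0.0015). In muscle it read 109, 84.1 and 86.3 in Tk2-/- mice, against 116, 115 and 153 in Tk2+/+ mice, a smaller difference of -0.40 (limma, adjusted p = 0.0377) that missed the threshold after median centring (-0.31) and without Tk2+/+ muscle array 3 (-0.28), Tk2-/- muscle array 2 (-0.34) or 3 (-0.36), or Tk2-/- heart array 1 (-0.40). Col26a1, known from developing testis and ovary in mice, was lower on each Tk2-/- array than on any Tk2+/+ array of its tissue. Its differences were -0.62 in muscle and -0.57 in heart, where it was -0.31 after quantile normalization. In heart it fell short of the threshold after median centring (-0.12) and after upper-quartile scaling, and the 4 scalings gave -0.31 to -0.09. Col16a1, a fibril-associated chain, differed by -0.32 in muscle, where it missed the threshold on the deposited values (limma, adjusted p = 0.0639) and passed after quantile normalization (-0.26; limma, adjusted p = 0.0188) and without Tk2-/- muscle array 1 (-0.42; limma, adjusted p = 0.0231), and its arrays did not overlap. In heart Col16a1 and Col20a1 passed as lower on the deposited values and under none of the 4 scalings (-0.31 and -0.26), were -0.16 and 0.085 after quantile normalization and turned to 0.13 and 0.18 after median centring, and each lost its call when 1 of several heart arrays was left out. Col23a1, a membrane-bound collagen, was the 1 gene that rose in heart, with 46.7, 34.8 and 47.1 in Tk2-/- mice, against 29.5, 38.8 and 25.8 in Tk2+/+ mice, which overlap. Its difference of 0.32 (limma, adjusted p = 0.0482) became 0.60 after quantile normalization (limma, adjusted p = 0.00255) and fell short of the threshold on the deposited values without any 1 of 9 arrays, with an adjusted p of 0.0508 to 0.192.

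Altogether 19 of the 42 genes passed in neither tissue, with differences of -0.19 to 0.19 in muscle and -0.18 to 0.20 in heart. Of these, 10 had a mean signal under 32 and 9 a mean of at least 32, and the brightest of them, Col6a4, had a mean of 82.9. The genes of cartilage collagens all belonged here, namely Col2a1, Col9a1, Col9a2, Col10a1, Col11a1 and Col11a2. After quantile normalization 3 of the 19 rose in heart, which were Col11a2 (0.24), Col6a4 (0.52) and Col13a1 (0.41).

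Upstream sequence was available for 34 of the 42 genes in the RefSeq promoter table of build GRCm38.p6, of which 13 were among the 17 that fell in both tissues. The 250 bases before the annotated start are shown for the 4 genes with the largest falls in muscle that have a single window there, as an example of genes that moved together. They were searched on both strands for the CCAAT box (CCAAT), the GC box (GGGCGG) and the TATA box (TATAAA), and matches are in capitals. They are chr4:47207762-47208011 on the plus strand, chr1:90843972-90844221 on the minus strand, chr6:4505368-4505617 on the plus strand and chr1:45311288-45311537 on the plus strand, each given 5′ to 3′ on the strand of the gene.
Col15a1: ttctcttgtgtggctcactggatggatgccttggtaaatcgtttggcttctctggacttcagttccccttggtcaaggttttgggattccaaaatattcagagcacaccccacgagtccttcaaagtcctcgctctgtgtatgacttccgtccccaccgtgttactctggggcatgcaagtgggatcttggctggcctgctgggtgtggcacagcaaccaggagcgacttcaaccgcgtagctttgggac
Col6a3: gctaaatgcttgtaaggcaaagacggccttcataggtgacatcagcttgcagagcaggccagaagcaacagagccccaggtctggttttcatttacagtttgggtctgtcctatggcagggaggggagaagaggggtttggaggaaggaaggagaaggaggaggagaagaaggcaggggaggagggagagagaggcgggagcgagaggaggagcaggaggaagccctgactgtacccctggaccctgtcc
Col1a2: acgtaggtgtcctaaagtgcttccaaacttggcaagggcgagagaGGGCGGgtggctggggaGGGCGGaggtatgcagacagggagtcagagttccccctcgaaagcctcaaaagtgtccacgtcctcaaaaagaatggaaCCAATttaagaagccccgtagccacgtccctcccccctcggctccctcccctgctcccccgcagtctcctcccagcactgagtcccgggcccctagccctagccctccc
Col3a1: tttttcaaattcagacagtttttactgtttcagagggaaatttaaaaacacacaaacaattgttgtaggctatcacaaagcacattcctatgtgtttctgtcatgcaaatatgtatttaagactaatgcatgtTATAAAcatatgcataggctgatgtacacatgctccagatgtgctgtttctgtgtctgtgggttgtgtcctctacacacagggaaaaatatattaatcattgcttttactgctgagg
Col1a2 had 2 GC box matches and 1 CCAAT box match, Col3a1 had 1 TATA box match beginning 117 bases before the start, and Col15a1 and Col6a3 had no match to these letters. No match overlapped another. Of the 13 genes that fell in both tissues, 5 had a CCAAT box match, 8 a GC box match and 1 a TATA box match. Of the other 21 collagen genes with a window the numbers were 7, 12 and 4. These counts are by gene, and for the 3 collagen genes with 2 windows a match in either one counted. Counted by window instead, 33.8%, 32.7% and 12.4% of all 32851 windows had a match. No shared match set the 4 genes apart. Col4a1 and Col4a2 lie head to head, Col4a1 on the minus and Col4a2 on the plus strand, and the 5′ ends of their annotated transcripts overlap by 22 bases.

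Differences in muscle and heart were set side by side. They came from separate arrays, but probably from the same 3 mice of each genotype, so the tissues are not independent samples. With genotype and replicate number taken as a shared animal the correlation within animals was -0.019, and 10 genes were higher and 0 lower for the difference between tissues, as without it. All 17 genes that fell in muscle also fell in heart, which is 100% of the muscle list and 77.3% of the heart list. Over all genes 9.42% fell in both, which is 86.5% of those that fell in muscle and 19.2% of those that fell in heart. After quantile normalization 17 of the 18 muscle genes and 17 of the 17 heart genes were shared (94.4% and 100%). Over all genes 8.64% then fell in both, which is 58.6% of those that fell in muscle and 48.3% of those that fell in heart. Over the 42 genes the muscle and heart differences had a Pearson r of 0.93 and a Spearman rho of 0.76 (0.94 and 0.78 after quantile normalization), given as a description across genes, which are not independent replicates and include many dim probe sets near 0. The fall was larger in heart for 10 genes by the test of the difference between tissues: Col3a1, Col5a2, Col4a1, Col4a2, Col4a5, Col6a1, Col6a3, Col8a1, Col14a1 and Col15a1. However, 41.3% of all genes passed in that direction on the deposited values, and 1.39% in the other, in which 0 collagen genes did (Col11a2 and Col23a1 at an unadjusted p under 0.05). After quantile normalization none of the 10 passed, where 6% of all genes were higher and 4.54% lower. The 2 genes that did pass were Col1a2 (-0.56; limma, adjusted p = 0.0267) and Col23a1 (-0.64; limma, adjusted p = 0.0333), both with a more negative difference in muscle than in heart. Median centring gave 4 collagen genes higher and 9 lower, where 21.2% of all genes were higher and 21% lower. Upper-quartile scaling gave 1 higher and 13 lower, where 6.08% of all genes were higher and 15% lower. No collagen gene differed between tissues under all scalings.

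**Figure D3:**
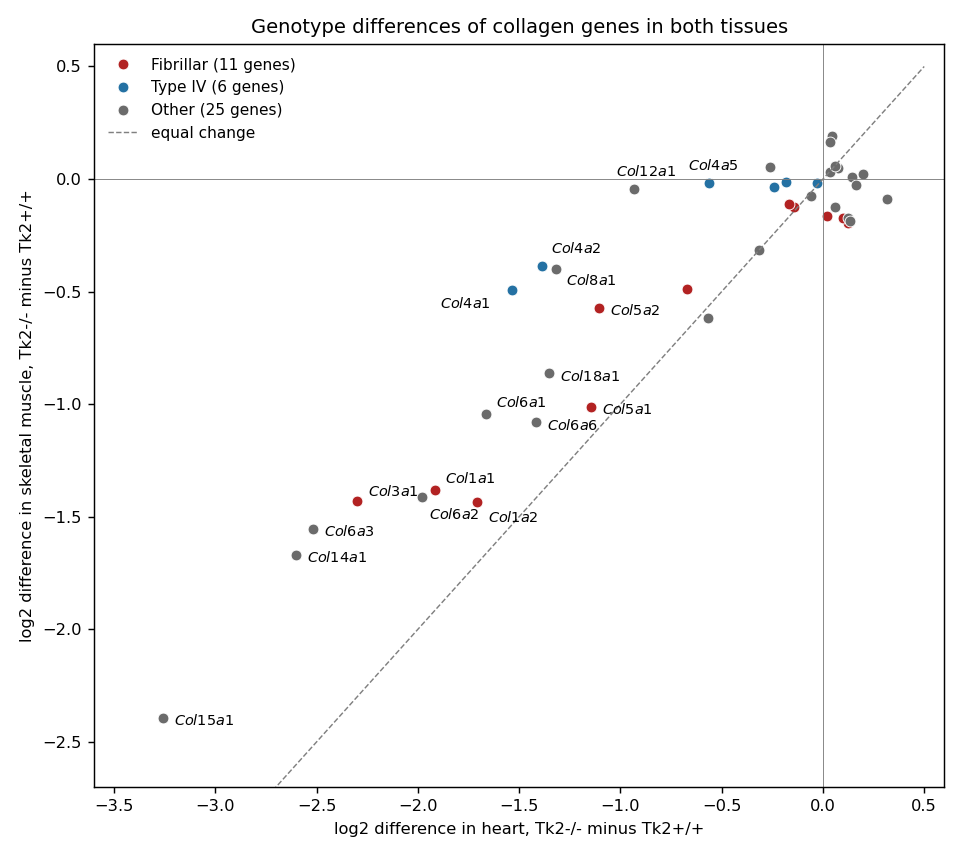
Log2 difference between Tk2-/- and Tk2+/+ in heart (horizontal axis) and in skeletal muscle (vertical axis) for the 42 collagen genes on the deposited values, coloured by class, with a dashed line of equal change. The genes that fell lie in the lower left, from Col15a1 at the end to Col4a1 and Col4a2 near the top, and most of them lie above the line, where the difference in heart is the larger one.

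Tissue was compared within each genotype. In Tk2+/+ mice 29 collagen genes were higher in muscle than in heart and 3 were lower, where 30.6% of all genes were higher and 18.4% lower. The muscle arrays of 30 genes lay all above the heart arrays and those of 3 all below, where the shares of all genes were 35.6% and 20.1%. All 11 fibrillar genes were higher in muscle, by 0.65 to 1.62 on the log2 scale, and under median centring, quantile normalization over all arrays and upper-quartile scaling as well. Col1a1 read 3441, 3414 and 3076 in Tk2+/+ muscle, against 1215, 831 and 1192 in Tk2+/+ heart (1.62 ± 0.15, standard error, n = 3; limma, adjusted p = 4.63e-07). Col12a1 had a like difference of 1.61 (limma, adjusted p = 0.000517). The type IV genes did not share this direction, as 0 of 6 were higher in Tk2+/+ muscle on the deposited values, although Col4a1 passed as higher after quantile normalization within tissue (0.22). Col4a5 and Col4a2 were lower in Tk2+/+ muscle than in Tk2+/+ heart, with differences of -1.78, which is 3.44-fold lower, and -0.37 (limma, adjusted p = 5.32e-09 and 0.0186). The Col4a2 call was lost after quantile normalization within tissue (-0.016; limma, adjusted p = 0.862) and held under the other 3 scalings. Col8a1 read 115 to 153 in Tk2+/+ muscle, against 283 to 321 in Tk2+/+ heart (-1.16; limma, adjusted p = 4.18e-06). Col14a1, Col15a1, Col18a1, Col6a1 and Col6a2 differed by 0.036, 0.13, -0.065, 0.24 and 0.27 and did not pass on the deposited values.

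In Tk2-/- mice 36 collagen genes were higher in muscle than in heart and 1 was lower (Col4a5, -1.24), where 59.5% of all genes were higher and 4.55% lower. Without overlap 38 lay above and 1 below, where the shares of all genes were 67.8% and 4.88%. The Tk2-/- heart arrays were the dimmest, and the counts changed with the scaling. Median centring gave 16 higher and 5 lower, where 20% of all genes were higher and 30.4% lower. Quantile normalization over all 12 arrays gave 12 and 3, where the shares of all genes were 19.1% and 18.8%. Upper-quartile scaling gave 13 and 3, where the shares were 18% and 18%. Of the 11 fibrillar genes, 7 were higher in Tk2-/- muscle than in Tk2-/- heart under all 4 scalings as well as on the deposited values. Col1a1 had the largest of these fibrillar differences, with 1126 to 1422 in Tk2-/- muscle, against 224 to 305 in Tk2-/- heart (2.16; limma, adjusted p = 1.28e-08). Col4a5 was the 1 gene lower in muscle under all of them.

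**Figure D4:**
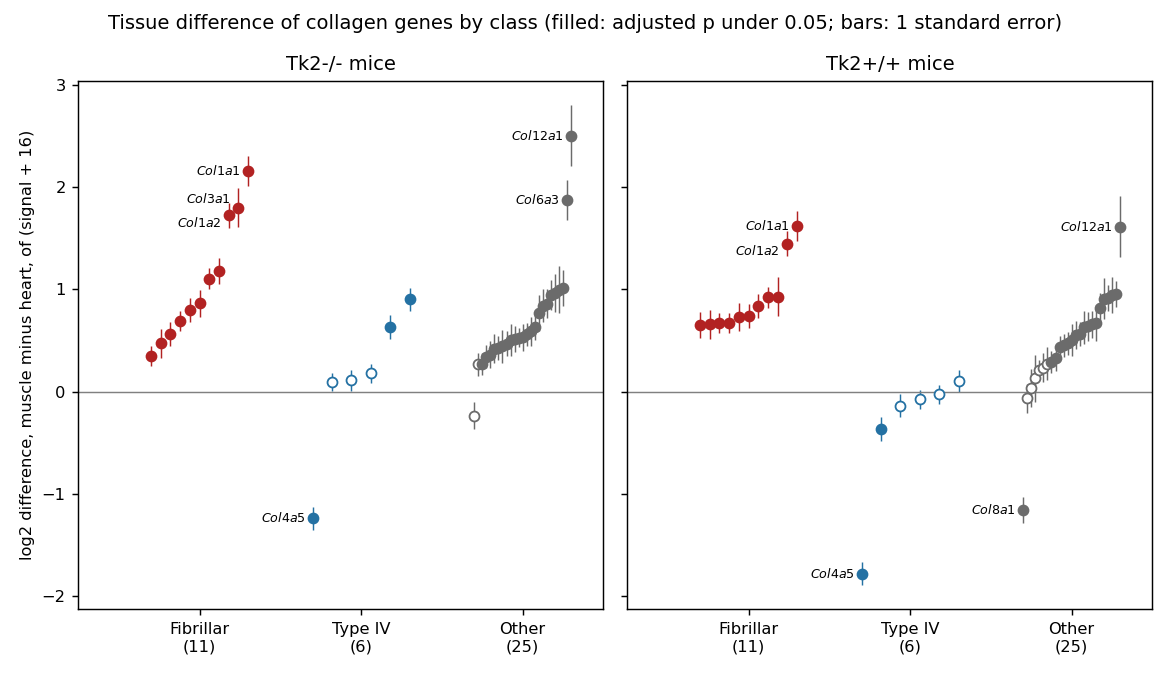
Log2 difference of (signal + 16) between skeletal muscle and heart for the collagen genes of each class in Tk2-/- mice (left) and Tk2+/+ mice (right), with 1 circle a gene, bars of 1 standard error and filled circles for an adjusted p under 0.05 in limma. In Tk2+/+ mice all 11 fibrillar genes lie above 0.6 and the type IV genes lie at or below about 0.1, with Col4a5 at -1.78.

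Chains that share a molecule were compared within each array, as the shift of the log2 ratio of their signals between genotypes. Ratios of Col6a1 to Col6a2 and to Col6a3 were higher in Tk2-/- than in Tk2+/+ in both tissues without overlap: Col6a1 to Col6a2 shifted by 0.37 in muscle and 0.32 in heart, and Col6a1 to Col6a3 by 0.51 in muscle and 0.85 in heart. Col6a1 thus fell less than its partners. The ratio of Col1a1 to Col1a2 shifted by 0.051 in muscle, with overlap between genotypes, and by -0.21 in heart, without. Col4a1 to Col4a2 shifted by -0.11 in muscle and -0.15 in heart, without overlap in either. Col5a1 to Col5a2 shifted by -0.44 in muscle, without overlap, and by -0.043 in heart, with overlap. These shifts were not tested, and with a probe set for each chain a difference in how the probe sets respond cannot be told apart from a difference in RNA.

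Genes that act on collagen chains after their synthesis were examined from 3 lists with 27 measured genes. In muscle 16 of the 27 fell and 3 rose, where 10.9% of all genes fell and 11.6% rose. In heart 23 fell and 0 rose, also at an unadjusted p, where 49% of all genes fell and 1.99% rose. After quantile normalization 18 fell and 2 rose in heart, where 17.9% of all genes fell and 13.9% rose. Most of the 27 had a mean signal of at least 32. Of all such genes 74.6% fell in heart on the deposited values, and 25.6% after quantile normalization. Serpinh1, the collagen chaperone of the endoplasmic reticulum, read 258, 195 and 212 in Tk2-/- muscle, against 627, 645 and 564 in Tk2+/+ muscle, and 217, 276 and 176 in Tk2-/- heart, against 1124, 1039 and 1004 in Tk2+/+ heart. Its differences of -1.41 and -2.18 (-1.50 after quantile normalization) were the largest among the 14 genes of chain modification and folding, of which 8 fell in muscle and 13 in heart (12 after quantile normalization). Crtap, part of the complex that hydroxylates prolines at the 3 position, fell by 1.01 in muscle and by 1.57 in heart (-0.93 after quantile normalization), and P4ha1, a subunit of the prolyl 4-hydroxylase that makes the helix stable, fell by 1.88 in heart (-1.22). In contrast P3h2, another prolyl 3-hydroxylase, rose in muscle (0.41; limma, adjusted p = 0.0304), with 259.6, 201 and 193 in Tk2-/- muscle, against 140.1, 173 and 165 in Tk2+/+ muscle.

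Of the 9 genes of procollagen export and propeptide cleavage, 6 fell and 1 rose in muscle and 7 fell in heart. Of all genes 10.9% fell and 11.6% rose in muscle, and 49% fell in heart. After quantile normalization 4 fell and 1 rose in heart, with a median of -0.10 over the 9 genes, where 17.9% of all genes fell and 13.9% rose. Pcolce, which enhances removal of the C-terminal propeptide, read 624, 512 and 502 in Tk2-/- muscle, against 1748, 1795 and 1528 in Tk2+/+ muscle (-1.61), and 215 to 365 in Tk2-/- heart, against 991 to 1197 in Tk2+/+ heart (-1.84, and -1.16 after quantile normalization). Bmp1, the propeptide protease itself, fell by 0.69 in muscle and by 1.30 in heart (-0.62 after quantile normalization). Among the 4 crosslinking genes, Loxl1 and Loxl2 fell in both tissues, Loxl2 by 0.95 in muscle and by 2.01 in heart (-1.37 after quantile normalization). Lox, the main lysyl oxidase of fibrillar collagen, went the other way in muscle, with 616, 651 and 644 in Tk2-/- muscle, against 254, 257 and 299 in Tk2+/+ muscle (1.19 ± 0.17, standard error, n = 3; limma, adjusted p = 0.000102). All its Tk2-/- muscle arrays were brighter than any Tk2+/+ muscle array. In heart Lox read 234, 167 and 209 in Tk2-/- mice, against 163, 124 and 229.9 in Tk2+/+ mice, which overlap and did not pass on the deposited values (0.25; 0.91 after quantile normalization; limma, adjusted p = 0.00258).

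Markers of cell types and states moved with the collagen genes in part. The counts below stand against 10.9% of all genes that fell and 11.6% that rose in muscle. In heart 49% of all genes fell and 1.99% rose, and 74.6% of those with a mean signal of at least 32 fell. After quantile normalization 17.9% of all genes fell and 13.9% rose in heart, so the heart counts on the deposited values largely follow the background. Of 11 fibroblast markers 6 fell and 2 rose in muscle, and 9 fell in heart (6 fell and 3 rose after quantile normalization). Their summed signal was 4039 to 4766 in Tk2-/- muscle, against 5438 to 6158 in Tk2+/+ muscle, and 3087 to 3874 in Tk2-/- heart, against 6840.4 to 8864 in Tk2+/+ heart. Thy1, Dpt and Cd34 were among those that fell, and Gsn (0.99) and Pdgfra (0.39) rose in muscle. All 6 markers of dividing cells fell in both tissues, with a summed signal of 71.8 to 229.8 in Tk2-/- muscle, against 506 to 994 in Tk2+/+ muscle, and 44.6 to 60.9 in Tk2-/- heart, against 466 to 1088 in Tk2+/+ heart. Of 10 endothelial and 8 mural cell markers 1 each fell in muscle (3 each after quantile normalization), and in heart all of both lists fell on the deposited values, while after quantile normalization 4 endothelial markers fell, 2 mural markers fell and 2 rose. The endothelial sum was 6445 to 7253 in Tk2-/- muscle, against 6996 to 8654 in Tk2+/+ muscle, and 5466 to 6961 in Tk2-/- heart, against 10195 to 12463 in Tk2+/+ heart. Mural cells, the pericytes and smooth muscle cells around vessels, had a sum of 5426 to 5559 in Tk2-/- muscle, against 4918 to 6292 in Tk2+/+ muscle, and 4494 to 5567 in Tk2-/- heart, against 6396 to 7547 in Tk2+/+ heart. Of 8 leucocyte markers 0 fell and 1 rose in muscle, and 7 fell in heart (6 after quantile normalization), with a sum of 575 to 686 in Tk2-/- heart, against 1532 to 1900.1 in Tk2+/+ heart. No marker of these lists was at 0 on any array. The part of these cells in the collagen results was not tested.

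The markers of other connective tissues were less uniform. Of all genes, 10.9% fell and 11.6% rose in muscle, and 49% fell and 1.99% rose in heart. Among all genes of mean signal at least 32, 74.6% fell in heart. After quantile normalization 17.9% of all genes fell and 13.9% rose there. Of 7 fibril-binding proteoglycans 2 fell in muscle and 5 in heart, among them Lum, which read 289.9, 183 and 177 in Tk2-/- muscle, against 762, 654 and 547 in Tk2+/+ muscle. Of 7 collagen receptors 3 fell and 1 rose in muscle, and 6 fell in heart. Of 8 cartilage markers 0 moved in muscle and 1 fell in heart, and of 5 bone markers 1 rose and 1 fell in muscle and 1 fell in heart. Of 4 tendon markers 2 fell in muscle and 1 in heart. Of 5 adipocyte markers 4 rose and 1 fell in muscle, with a summed signal of 3178 to 4286 in Tk2-/- muscle, against 1782 to 2254 in Tk2+/+ muscle, and 1 fell in heart. After quantile normalization the heart counts were 3 lower for proteoglycans, 5 lower for receptors, 1 higher and 1 lower each for cartilage and tendon markers and 0 for adipocyte markers. The 2 measured Schwann cell markers did not pass in muscle, and 1 fell in heart on the deposited values and 0 after quantile normalization. The summed signal of all 42 collagen genes was 6679 to 8517 in Tk2-/- muscle, against 15076 to 17316 in Tk2+/+ muscle, and 2649 to 3583 in Tk2-/- heart, against 8882 to 10947 in Tk2+/+ heart. These sums weight the bright probe sets most.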

How the data were processed

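RNA of hind limb skeletal muscle and heart was hybridised to 12 Affymetrix Mouse Gene 1.1 ST arrays, 3 a group. The deposited values are probe set intensities on a linear scale, which the authors made with Affymetrix Expression Console and PLIER per the labels. Versions and normalization settings are not given in the sources used here. The number of arrays limits the precision. Of 35556 probe sets, 21218 carried a single gene symbol in the platform annotation, 1881 several and 12457 none. The brightest probe set was kept for each of 18820 genes, 1386 of which had more than 1. Groups came from the sample labels, and replicates were different mice.

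Values were tested as log2(signal + 16) with limma 3.58.1 (lmFit and eBayes, R 4.3.3) over 4 group means in 1 fit, with p-values adjusted by Benjamini-Hochberg across the 18820 genes and called under 0.05. The script was tested on simulated data. Alternatives were 4 scalings between arrays, an offset of 1, a mean signal of at least 32, the mean of a gene's probe sets, each tissue alone, trend and robust estimation, array weights, replicate blocks, the t-test of the methods and leaving out each array. Figures were drawn with matplotlib 3.10.9. Collagen genes and gene lists were chosen with earlier results of these data known. All collagen genes could be named, with array values for fibrillar, type IV, VI, XII, XIV, XV and XVIII chains of mean signal at least 32 and for others past the threshold or without overlap. From other lists up to 3 genes with the largest change past the threshold in a tissue were named. P3h2, Fmod, Thbs4, Gsn and Pdgfra fell outside that rule and were named after their values were seen. Promoter windows came from RefSeq, build GRCm38.p6.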

Additional observations from a re-analysis of the deposited data

Results flagged for a closer look

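The genotype difference was less negative in skeletal muscle than in heart for 10 collagen genes by the limma test of the difference itself (log2 difference in muscle minus that in heart). Values were 1.04 for Col4a1, 0.9995 for Col4a2, 0.96 for Col6a3, 0.93 for Col14a1, 0.92 for Col8a1, 0.87 for Col3a1, 0.87 for Col15a1, 0.62 for Col6a1, 0.54 for Col4a5 and 0.53 for Col5a2. On the same values 41.3% of all genes passed in that direction, and their median was 0.30. After quantile normalization within tissue 0 of the 10 passed.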

How the results depend on the processing

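The counts of collagen genes that fell moved little with the scaling: 16 to 18 in muscle and 16 to 22 in heart over the deposited values and the 4 scalings. Counts that rose in heart were 20 with median centring, 4 with either quantile normalization, 21 with upper-quartile scaling, 4 with array weights and 0 with each tissue alone, trend and robust estimation or the t-test of the methods. For genes of collagen biosynthesis that count was 3 with median centring or upper-quartile scaling, 2 with either quantile normalization and 1 with array weights. For the difference between tissues, 4 genes were higher and 9 lower with median centring, 0 and 2 with either quantile normalization, 1 and 13 with upper-quartile scaling, and 6 were lower with array weights. There the shares of all genes were 21.2% higher and 21% lower with median centring, and 6.08% and 15% with upper-quartile scaling. Between Tk2-/- muscle and Tk2-/- heart, 16 were higher and 5 lower with median centring, 12 and 3 with quantile normalization over all arrays, 13 and 3 with upper-quartile scaling, and 2 were lower with quantile normalization within tissue or array weights. The shares of all genes were 20% higher and 30.4% lower with median centring, 19.1% and 18.8% with quantile normalization over all arrays, and 18% and 18% with upper-quartile scaling. In Tk2+/+ mice, 5 were lower in muscle with quantile normalization over all arrays.

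Among the 31 genes of mean signal at least 32, a heart difference that was past the threshold before or after the change turned its direction with median centring for Col2a1 (0.30), Col11a1 (0.28), Col16a1 (0.13) and Col20a1 (0.18), with quantile normalization within tissue and over all arrays for Col4a5 (0.013 in both) and Col20a1 (0.085 and 0.081), and with upper-quartile scaling for Col2a1 (0.39), Col11a1 (0.32), Col4a5 (0.040), Col16a1 (0.12) and Col20a1 (0.26). The 1 dimmer gene past the threshold on the deposited values, Col4a4, turned to 0.20 with median centring and to 0.18 with upper-quartile scaling. The cause was not tested.

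The t-test of the methods with Benjamini-Hochberg adjustment gave 9 collagen genes lower in muscle and 17 higher in Tk2+/+ muscle than in Tk2+/+ heart, and for biosynthesis genes 5 lower and 1 higher in muscle. At the unadjusted p of the methods and a 2-fold limit on the log2 differences used here, it gave 10, 3, 3 and 1. At that limit 14 biosynthesis genes were lower in heart and 8 collagen genes higher in Tk2-/- muscle than in Tk2-/- heart. These differences understate the change of dim genes, so some genes more than 2-fold apart in signal were not counted. Col18a1 had a mean signal of 46.3 in Tk2-/- muscle, against 97.6 in Tk2+/+ muscle, but differed by -0.86.

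Leaving out each array in turn gave 15 to 17 collagen genes lower and 0 higher in muscle, 19 to 22 lower and 0 to 3 higher in heart, 7 to 13 higher and 0 to 4 lower for the difference between tissues, 29 to 37 higher and 1 lower for muscle against heart in Tk2-/- mice, and 26 to 29 higher and 2 to 3 lower in Tk2+/+ mice. The highest heart count of 3 and the highest lower count of 4 came without Tk2+/+ heart array 2, when Col9a1 and Col22a1 passed in heart. Biosynthesis genes gave 13 to 17 lower and 2 to 3 higher in muscle, and 21 to 23 lower and 0 to 1 higher in heart. With the replicate number as a block 0 collagen genes rose in heart. Same-numbered samples of 2 groups did not deviate together, with correlations of -0.19 to 0.22, so the numbers were not taken as pairs.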
